A study of Rattus norvegicus with 3 samples.

Results

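Brain nuclei of female, wild-type Crl:CD(SD) rats, an outbred stock, aged 12 weeks, were compared between an injection of lipopolysaccharide (LPS, 5 mg/kg) and an injection of saline, gene by gene and without sorting the nuclei into cell classes. Injections were intraperitoneal and brains were collected 7 hours later. Nuclei of 4 animals were pooled into 1 library per treatment, and libraries were made with 10x Genomics 5' chemistry, in which each captured RNA molecule counts as 1 unique molecular identifier (UMI). The third library, from rats given poly(I:C) at 12 mg/kg, is quoted only for its levels. The comparison used the barcodes with at least 500 detected genes, 21343 after saline and 10491 after LPS, or 31834 of the 51647 barcodes in the 3 libraries. UMIs of a gene were summed over the barcodes of a library and scaled to counts per 1000000 UMIs of the library (CPM), and the 15342 genes with at least 30 UMIs in the 2 libraries together were compared, out of 28370 gene names. Each side is 1 pooled library, so none of the differences below can be checked against replicates, and the 95% intervals in brackets are exact conditional intervals that cover counting error only.

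The kept barcodes held 33256195 UMIs after saline and 29353560 after LPS, with medians of 1321 and 2548 UMIs and of 857 and 1375 detected genes per barcode. The LPS library was therefore deeper per barcode, and 76.4% of its kept barcodes had at least 1000 detected genes, against 35.3% after saline. Mitochondrially encoded genes took 0.0766% and 0.0729% of the UMIs. UMIs of at least 2 pan-neuronal markers were found in 94.3% of saline and 89.2% of LPS barcodes, so most barcodes held neuronal RNA. In sums over a library, fewer nuclei of a type and less RNA per nucleus cannot be told apart. The 2 libraries shared 309 kept barcode sequences, 2.95% of those kept after LPS, and no barcodes were left out as doublets.

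LPS is the outer membrane glycolipid of Gram-negative bacteria and is recognised by Tlr4, which signals through NF-kB and interferon regulatory factors. Given outside the brain, it reaches the brain largely through the blood: endothelial cells and perivascular macrophages respond to it and to circulating cytokines such as Tnf, Il1b and interferons, and they pass the signal on through chemokines, adhesion molecules and prostaglandins. NF-kB drives chemokine and cytokine genes, interferon signalling drives interferon-stimulated genes through ISRE and GAS elements, and STAT3 drives acute phase genes such as Lcn2 and Socs3.

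The genes that stood farthest above saline were chemokine genes, so the 250 bases before the transcription start of the 4 leading ones with a promoter entry are shown. Sequences are from RefSeq, build GRCr8, whereas the counts were made on mRatBN7.2. Each is written 5′ to 3′ on the strand of the gene, and capitals mark matches to the ISRE core (GAAA, any 2 bases, GAAA), the GAS element (TTCNNNGAA) or the NF-kB consensus on either strand. The Cxcl11, Cxcl10 and Cxcl9 promoters lie on the plus strand at chr14:15973478-15973727, chr14:15988816-15989065 and chr14:16006916-16007165, and the Cxcl1 promoter lies on the minus strand at chr14:17479322-17479571.
Cxcl11: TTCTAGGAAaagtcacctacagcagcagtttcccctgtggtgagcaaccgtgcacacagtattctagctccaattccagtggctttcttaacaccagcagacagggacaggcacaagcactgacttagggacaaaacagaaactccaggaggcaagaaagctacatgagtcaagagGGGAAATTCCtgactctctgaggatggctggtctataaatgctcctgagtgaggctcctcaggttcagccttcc
Cxcl9: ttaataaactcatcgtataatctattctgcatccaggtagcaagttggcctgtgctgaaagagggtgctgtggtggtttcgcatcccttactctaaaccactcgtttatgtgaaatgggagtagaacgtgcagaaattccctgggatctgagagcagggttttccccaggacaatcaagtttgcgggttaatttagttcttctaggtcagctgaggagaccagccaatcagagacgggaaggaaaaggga
Cxcl10: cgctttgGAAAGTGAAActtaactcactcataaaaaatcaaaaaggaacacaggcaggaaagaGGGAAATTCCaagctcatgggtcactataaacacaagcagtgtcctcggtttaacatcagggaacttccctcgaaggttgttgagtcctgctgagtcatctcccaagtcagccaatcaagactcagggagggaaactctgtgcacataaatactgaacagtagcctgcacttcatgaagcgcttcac
Cxcl1: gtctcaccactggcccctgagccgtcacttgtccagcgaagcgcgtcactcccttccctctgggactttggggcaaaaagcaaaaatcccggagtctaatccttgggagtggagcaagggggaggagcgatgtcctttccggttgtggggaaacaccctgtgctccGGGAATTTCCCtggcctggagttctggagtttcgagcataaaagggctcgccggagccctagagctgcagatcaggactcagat
In Cxcl11 a GAS match began 250 bases and an NF-kB match 74 bases before the start. In Cxcl10 an ISRE core began 243 bases and an NF-kB match 187 bases before it, and in Cxcl1 overlapping NF-kB matches began 84 and 83 bases before it. None of the 3 motifs was found in this window of Cxcl9. Over the tested genes with an entry, the ISRE core was in 2.50% of all 10562 promoters, in 14.5% of the 228 promoters of genes at least 2-fold higher after LPS and in 3.67% of the 109 promoters of genes at least 2-fold lower. The NF-kB consensus was in 4.29%, 15.4% and 4.59% of them, and the GAS element in 5.75%, 13.2% and 8.26%. At least 1 of the motifs was in 11.8%, 33.8% and 12.8%. These are matches of letters in a fixed window and say nothing about binding.

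Most genes lay close to saline. The median log2 ratio of LPS to saline over all 15342 genes was -0.03, the middle 90% of genes lay between -0.51 and 0.58, and 14001 genes (91.3%) were within 1.5-fold. At least 2-fold higher after LPS were 333 genes (2.17%), and 201 genes (1.31%) were at least 2-fold lower. The whole 95% interval lay past 2-fold for 145 higher genes (0.945%) and 51 lower genes (0.332%), and 103 genes were at least 4-fold higher against 25 at least 4-fold lower. These genes were thinly expressed: the higher genes together held 0.0554% of saline and 0.177% of LPS UMIs, and the lower genes 0.155% and 0.0580%. Among genes with 30 to 99 UMIs, 7.70% were higher and 5.64% lower, whereas among the 6092 genes with 1000 to 9990 UMIs these shares were 0.0985% and 0.230%. Prex2, an exchange factor for the GTPase Rac, was the 1 higher gene among the 1130 genes above that range and was chosen after its value was seen, with 3425 UMIs (103 CPM) after saline and 7419 (252.7 CPM) after LPS (2.45-fold higher [2.36 to 2.56]). Its UMIs lay in 2335 saline and 2268 LPS barcodes, and with at least 1000 detected genes per barcode it was at 1.83 times saline, short of 2-fold. At the border, Pdk4 with 69 and 122 UMIs lay just above 2-fold and Cdkn1a with 68 and 120 just under it.

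**Figure D1:**
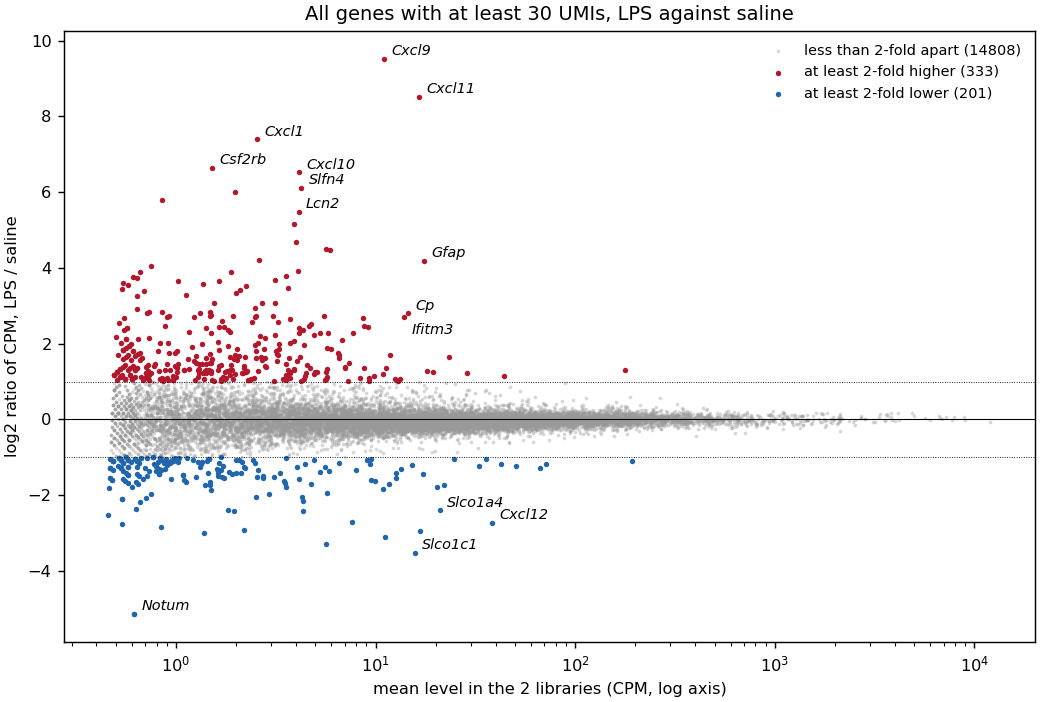
Each point is 1 of the 15342 tested genes, with the mean CPM of the saline and LPS libraries on a log axis and the log2 ratio of LPS to saline; red and blue mark the 333 genes at least 2-fold higher and the 201 at least 2-fold lower, and a gene with 0 saline UMIs is placed at its bound. The cloud narrows with level, and the leading genes, such as Cxcl9 and Cxcl11 above and Slco1c1 and Cxcl12 below, lie outside it at low to middle levels.

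The split between higher and lower genes depended on which barcodes were counted. Of the genes past 2-fold, 62.4% were higher. With barcodes of at least 1000 detected genes only, 174 genes were higher and 221 lower, so that 44.1% were higher. Limiting both libraries to barcodes with 500 to 1500 detected genes gave 726 higher and 201 lower genes (78.3%), and giving each barcode the same weight gave 841 and 175 (82.8%). Of the 333 higher genes, 147, 257 and 326 were also higher in these 3 counts. Of the 201 lower genes, 118, 76 and 123 were also lower in them. The 20 leading higher genes stayed at least 2-fold higher in all 3 wherever they had 30 UMIs.

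Chemokines led the higher genes. Cxcl11, an attractant of activated T cells through Cxcr3, had 0 UMIs after saline and 973 after LPS (33.1 CPM), at least 367-fold higher. Its neighbours Cxcl10 and Cxcl9, which bind the same receptor, had 0 and 244 UMIs (at least 92.1-fold) and 1 and 647 UMIs (733-fold [131 to 28997]). All 3 were thus at or near 0 after saline and among the clearest signals after LPS. Of the neutrophil attractants, Cxcl1 had 1 and 149 UMIs (169-fold [29.8 to 6712]), and Cxcl2 had 2 and 114 (64.6-fold [17.5 to 539.7]). The monocyte attractant Ccl2 had 1 and 49 UMIs. Over 13 measured chemokines, 8 were at least 2-fold higher, 1 was lower and the median log2 ratio was 2.45. The lower one was Cxcl12, a homeostatic chemokine that holds leukocytes at the vessel wall through Cxcr4, with 2223 UMIs (66.8 CPM) after saline and 297 (10.1 CPM) after LPS, 6.61-fold lower [5.85 to 7.48]. Summed over the 29 chemokine genes found, the level was 1.09-fold that of saline [1.04 to 1.13].

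**Figure D2:**
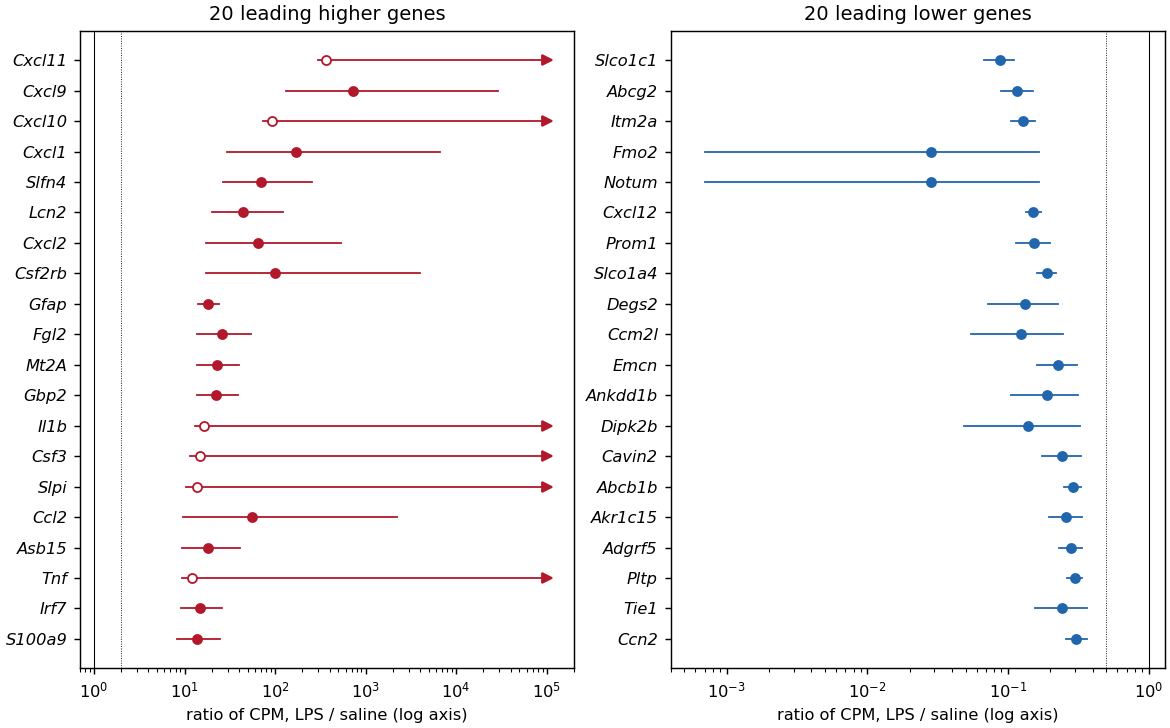
Ratio of CPM between LPS and saline on log axes for the 20 genes with the highest lower limit and the 20 with the lowest upper limit; bars are 95% counting intervals, open circles with arrows are lower bounds for genes with 0 saline UMIs, and dotted lines mark 2-fold. The lower limits of the higher genes all exceed 8.33-fold, and the lower genes are all at least 3.25-fold lower.

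Most UMIs of Cxcl11, Cxcl9, Cxcl10 and Cxcl1 came from barcodes with vascular RNA. Barcodes with UMIs of at least 2 of 6 endothelial markers were 2.50% of saline and 2.53% of LPS barcodes and held 2.41% and 1.89% of all UMIs. In the LPS library they held 80.6% of Cxcl11, 82.2% of Cxcl9, 69.3% of Cxcl10 and 65.8% of Cxcl1 UMIs. For Cxcl2 and Ccl2 the shares were 59.6% and 49.0%. Barcodes with at least 2 microglia or macrophage markers held 24.5% of Ccl2 UMIs. The median depth of the endothelial-marker barcodes was 1207.5 UMIs after saline and 1288 after LPS, while that of the other barcodes was 1323 and 2569. Outside these barcodes no saline UMI of Cxcl11, Cxcl9 or Cxcl10 was found, and LPS levels were at least 71.00-fold, 43.2-fold and 28.2-fold higher, on 189, 115 and 75 LPS UMIs. Cxcl11 UMIs were spread over 324 barcodes, with at most 27 in 1 barcode.

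Cytokine genes were sparser, and few of them differed. Il1b, the inflammasome cytokine, had 0 and 44 UMIs (at least 16.6-fold higher), Tnf had 0 and 32 (at least 12.1-fold), and Csf3, which mobilises neutrophils from the marrow, had 0 and 39 (at least 14.7-fold). Their UMIs lay in different barcodes: 65.6% of Tnf and 31.8% of Il1b UMIs were in barcodes with at least 2 microglia or macrophage markers. Such barcodes were 0.679% of saline and 2.39% of LPS barcodes, and some of the markers were themselves higher after LPS. By contrast, 69.2% of Csf3 UMIs were in endothelial-marker barcodes. Of 27 measured cytokine and growth factor genes 5 were at least 2-fold higher and 0 lower, with a median log2 ratio of 0.07, close to that of all genes. Among 33 receptors and signal transducers 7 were higher. Csf2rb, the shared signalling chain for Csf2, Il3 and Il5, had 1 and 88 UMIs (99.7-fold [17.4 to 3982]). Socs3, which limits Il6-type signalling, had 12 and 107 UMIs (10.1-fold [5.55 to 20.2]), and Osmr, the oncostatin M receptor, had 47 and 236 (5.69-fold [4.15 to 7.96]).

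Interferon-stimulated genes were higher as a group. Of 42 measured members 24 were at least 2-fold higher, 0 were lower and 39 had a ratio above 1, with a median log2 ratio of 1.13. Irf7, the transcription factor that amplifies interferon production, had 17 and 225 UMIs (14.99-fold [9.16 to 26.2]). Ifitm3, which blocks viral entry, had 124 and 709 UMIs (6.48-fold [5.35 to 7.904]), and 81.7% of its LPS UMIs were in endothelial-marker barcodes. Ifi44 had 48 and 281 UMIs (6.63-fold), with 19.2% in such barcodes, and the antiviral GTPase Mx2 had 22 and 129 (6.64-fold). The median of the list was 0.63 in barcodes with at least 1000 detected genes and 1.70 in those with 500 to 1500.

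Genes typical of interferon gamma had a larger median. 10 of 12 measured members passed 2-fold upwards, and the median log2 ratio was 2.49. Besides Cxcl9, the list holds the guanylate-binding proteins Gbp2, with 17 and 333 UMIs (22.2-fold [13.7 to 38.6]), and Gbp5, with 12 and 121 (11.4-fold [6.31 to 22.7]). Of 18 class I antigen presentation genes 7 were higher and 0 lower (median 0.72). Nlrc5, the transactivator of class I genes, had 22 and 164 UMIs (8.45-fold [5.39 to 13.8]), the peptide transporter gene Tap1 13 and 76 (6.62-fold) and the immunoproteasome gene Psmb8 17 and 73 (4.87-fold). Constitutive proteasome genes were not higher as the immunoproteasome gene was: 0 of 30 were higher, with a median of -0.08. Class II genes were thin, with 4 of 10 measured and 1 of them, RT1-DMb, at least 2-fold higher (12 and 22 UMIs, 2.08-fold [0.984 to 4.605]).

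NF-kB subunits, inhibitors and targets had 15 of 29 members at least 2-fold higher and 0 lower, with a median log2 ratio of 1.04. This median was 0.30 in barcodes with at least 1000 detected genes and 0.58 without endothelial-marker barcodes. Bcl3, a nuclear partner of NF-kB, had 8 and 104 UMIs (14.7-fold [7.204 to 35.02]). Acute phase genes and STAT3 targets had 15 of 23 members higher and 1 lower, with a median of 1.95. Lcn2, which withholds iron from bacteria, had 6 and 237 UMIs (44.8-fold [20.3 to 123]), with 79.7% of LPS UMIs in endothelial-marker barcodes and 17.3% in 9 barcodes with at least 2 neutrophil markers, and Fgl2, a prothrombinase-like protein, had 10 and 227 (25.7-fold [13.7 to 54.4]). Cp, the ferroxidase ceruloplasmin, had 121 and 744 UMIs (6.97-fold [5.74 to 8.51]), with only 8.74% in endothelial-marker barcodes.

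Complement genes had 9 of 17 members at least 2-fold higher, 0 lower and a median of 1.10. Itgam, a subunit of complement receptor 3, had 15 and 170 UMIs (12.8-fold [7.57 to 23.4]), C3 had 11 and 81 (8.34-fold [4.42 to 17.4]) and Cfb, the factor B of the alternative pathway, 78 and 440 (6.39-fold [5.01 to 8.24]). These genes differed in where their UMIs lay: 59.1% of Cfb but 6.17% of C3 LPS UMIs were in endothelial-marker barcodes, and 34.6% of C3 were in microglia or macrophage-marker barcodes. Leukocyte adhesion genes were split, with 4 of 15 higher and 2 lower. Higher were the integrin gene Itgal (5 and 56 UMIs, 12.7-fold [5.13 to 40.6]) and the adhesion ligand genes Icam1 (7 and 60, 9.71-fold [4.43 to 25.2]), Vcam1 (19 and 130, 7.75-fold [4.77 to 13.3]) and Sele (5 and 33, 7.48-fold [2.901 to 24.5]). Endothelial-marker barcodes held 33.3% of Icam1, 43.8% of Vcam1 and 66.7% of Sele LPS UMIs. Of 20 sensors and adaptors 2 were higher, among them the inflammasome sensor Nlrp3 with 13 and 57 UMIs (4.97-fold [2.69 to 9.89]).

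**Figure D3:**
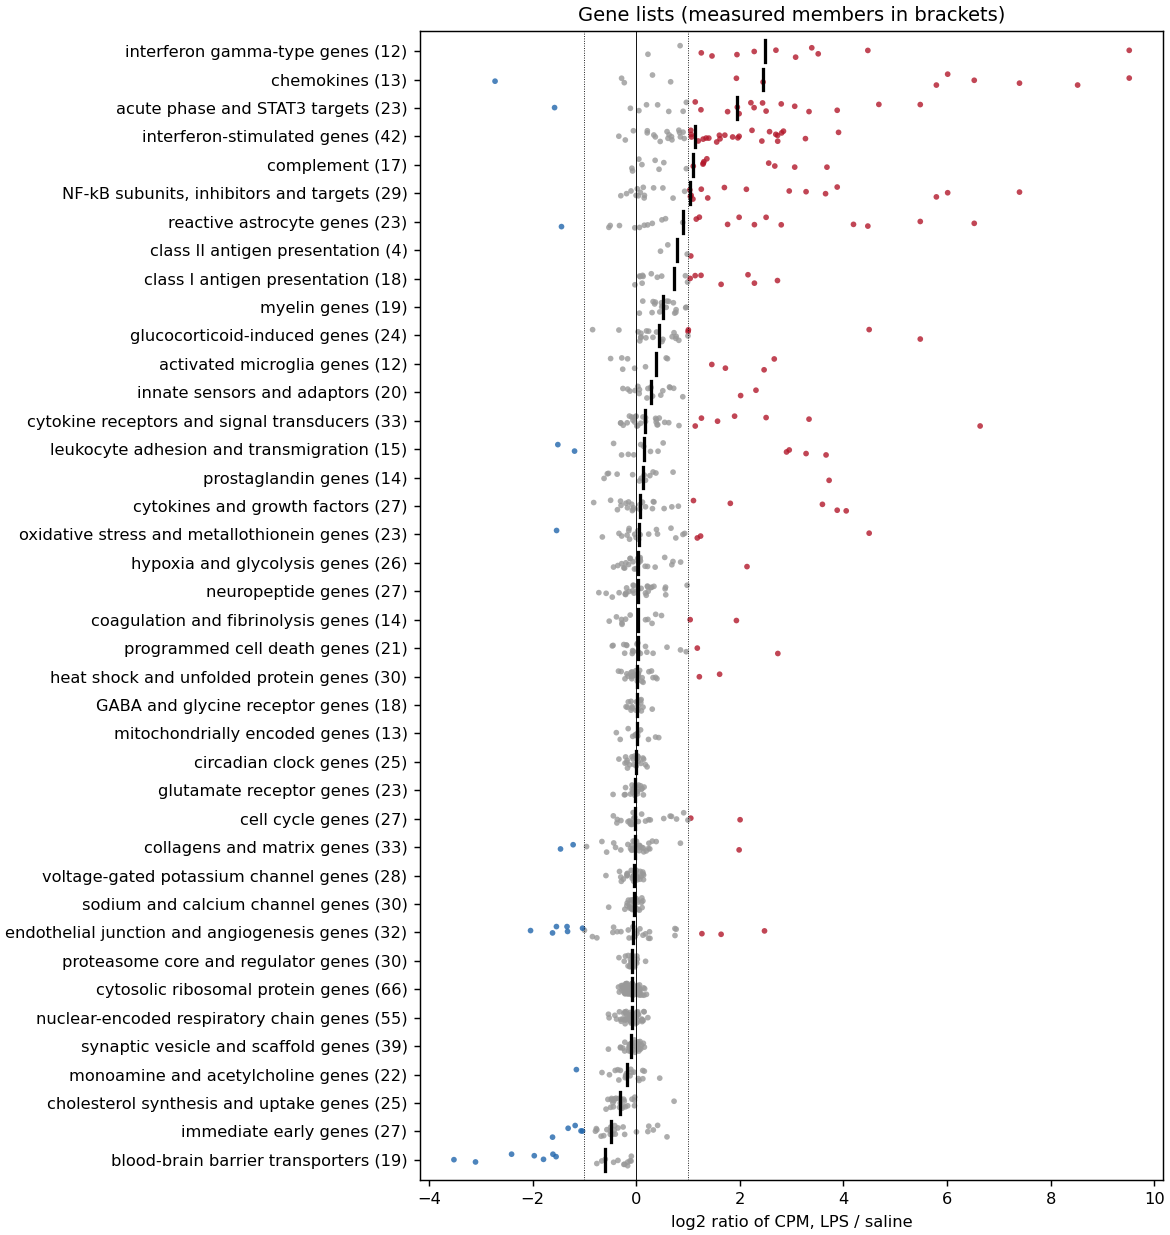
Log2 ratio of CPM, LPS to saline, for each measured member of 40 gene lists; red and blue points are at least 2-fold higher and lower, thick ticks are list medians, dotted lines mark 2-fold, and numbers in brackets count measured members, some of which stand in several lists. Medians run from 2.49 for interferon gamma-type genes to -0.60 for blood-brain barrier transporters, and the neuronal channel, receptor and synapse lists sit within 0.10 of 0.

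Glial genes were higher too. Gfap, the intermediate filament of reactive astrocytes, had 60 UMIs (1.804 CPM) after saline and 970 (33.05 CPM) after LPS, 18.3-fold higher [14.1 to 24.2], with 2.78% of LPS UMIs in endothelial-marker barcodes. In barcodes with at least 1000 detected genes it was 8.59-fold higher. Of 23 reactive astrocyte genes 11 were past 2-fold upwards and 1 downwards (median log2 ratio 0.90), but several, such as Lcn2, Gbp2 and Cxcl10, had most of their UMIs in endothelial-marker barcodes. The astrocyte markers Aqp4, a water channel, and Slc1a3, a glutamate transporter, had 81 and 265 UMIs (3.71-fold [2.88 to 4.81]) and 573 and 1175 (2.32-fold [2.101 to 2.57]). In barcodes with at least 1000 detected genes these ratios were 1.93 and 1.26, under 2-fold. All 12 astrocyte markers had a ratio above 1, 6 of them were at least 2-fold higher and their median log2 ratio was 0.92. Their summed level was 1.12-fold that of saline [1.101 to 1.13].

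All 19 myelin genes were also above saline without reaching 2-fold. Their median log2 ratio was 0.51, from Plekhh1 with 1088 and 1002 UMIs (1.04-fold) to Aspa with 508 and 876 (1.95-fold), and Mbp, the myelin basic protein gene, had 5006 and 6672 (1.51-fold). Summed markers of mature oligodendrocytes and of their precursors were 1.497-fold [1.46 to 1.53] and 1.395-fold [1.36 to 1.44] those of saline. Of 12 mature markers 0 were at least 2-fold higher (median log2 ratio 0.55), and of 9 precursor markers 3 were (0.94). The part of nucleus numbers in the myelin values was not tested. The myelin median differed with the barcodes counted, at 0.14 in barcodes with at least 1000 detected genes and 1.23 in those with 500 to 1500.

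Microglia or macrophage genes did not move together. Summed markers were 1.14-fold those of saline [1.08 to 1.21], with 6 of 14 measured at least 2-fold higher. Barcodes with at least 2 of these markers numbered 145 of the saline and 251 of the LPS barcodes, with median depths of 1688 and 2588 UMIs. Itgam, Ptprc, C1qa, C1qb and C1qc are among the markers that choose these barcodes and were themselves higher after LPS. Numbers of such barcodes, and shares of UMIs in them, may therefore not be like for like between the 2 libraries. Ptprc, the leukocyte surface phosphatase CD45, had 69 and 176 UMIs (2.89-fold [2.18 to 3.88]). Of 12 activated microglia genes 4 were higher, among them the inhibitory Fc receptor gene Fcgr2b (5 and 28 UMIs, 6.34-fold [2.42 to 21.04]) and the metal transporter gene Slc11a1 (9 and 44, 5.54-fold [2.67 to 12.9]). The median of that list was 0.38 and turned to -0.12 in barcodes with at least 1000 detected genes.

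Neutrophil transcripts were more frequent after LPS, in few barcodes. Summed markers had 54 UMIs after saline and 334 after LPS, 7.01-fold higher [5.24 to 9.52]. Of 17 markers found, 2 reached 30 UMIs and 3, Elane among them, were at 0 in both libraries. S100a9 and S100a8, the calprotectin subunits, had 16 and 196 UMIs (13.9-fold [8.33 to 24.8]) and 13 and 77 (6.71-fold [3.702 to 13.2]), with up to 38 UMIs of S100a9 in 1 barcode. The saline UMIs of S100a9 came from 3 barcodes, with up to 8 in 1 of them. In the LPS library 66.8% of S100a9 and 57.1% of S100a8 UMIs were in endothelial-marker barcodes. Microglia or macrophage-marker barcodes held 17.9% and 18.2% of them. Slpi, a secreted inhibitor of neutrophil elastase, had 0 and 36 UMIs (at least 13.6-fold) in 13 barcodes. Of these UMIs 80.6% were in barcodes with at least 2 neutrophil markers and 61.1% in endothelial-marker barcodes, as a barcode can count for both. Barcodes with at least 2 neutrophil markers numbered 2 after saline and 9 after LPS. Without them S100a9 had 1 and 46 UMIs (52.2-fold [8.905 to 2104]). S100a9 is itself among the markers that choose these barcodes, so this ratio, on 1 saline UMI, is no separate check. Without these barcodes Slpi had fewer than 30 UMIs, and 328 genes were at least 2-fold higher and 199 lower.

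Metal and steroid response genes held few high members. Mt2A, a metallothionein, had 16 and 319 UMIs (22.6-fold [lower limit 13.7]), while its relative Mt1 had 12 and 18 (1.699-fold [0.774 to 3.87]). Of 24 glucocorticoid-induced genes 4 were at least 2-fold higher, 22 had a ratio above 1 and the median log2 ratio was 0.45, or 0.09 in barcodes with at least 1000 detected genes. The higher ones were Lcn2, Mt2A, Hif3a and Pdk4, of which Hif3a and Pdk4 were at 1.29 and 1.21 in those barcodes. By comparison the receptor target Fkbp5 had 1567 and 1953 UMIs (1.41-fold [1.32 to 1.51]). Pla2g2a, a secreted phospholipase, was the 1 gene of 14 in the prostaglandin list past 2-fold, with 3 and 35 UMIs (13.2-fold [4.17 to 67.2]) in 13 LPS barcodes.

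Of 296 higher genes with a symbol, 119 were in a list. Outside them, Slfn4, Asb15 and Slpi, described with the neutrophil transcripts, were among the 20 leading genes. Slfn4, a Schlafen gene of myeloid cells, had 4 and 246 UMIs (69.7-fold [26.9 to 258]), with 57.3% in endothelial-marker and 24.8% in microglia or macrophage-marker barcodes. Asb15, a member of the ankyrin repeat and SOCS box family, had 9 and 146 UMIs (18.4-fold [9.42 to 41.00]). Of its LPS UMIs 97.9% were in barcodes with pan-neuronal markers, which held 96.3% of all LPS UMIs, against 27.8% to 62.5% for the other 19 leading genes, and 4.11% were in endothelial-marker barcodes. They were spread over 140 barcodes, with at most 2 in 1 barcode.

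The next 12 genes outside the lists by their lower limits were chosen after their values were seen and differed in where their LPS UMIs lay. Tgm2, the tissue transglutaminase, had 20 and 197 UMIs (11.2-fold [7.03 to 18.7]), 91.4% of them in endothelial-marker barcodes, and Tmem252 had 12 and 113 (10.7-fold [5.87 to 21.3]), 79.6% of them there. For the phospholipase gene Pla1a (65 and 280 UMIs, 4.88-fold), Gsap (17 and 99, 6.598-fold) and the tubulin gene Tuba1c (12 and 76, 7.18-fold) this share was between 50% and 70%. Adgre1, which encodes the macrophage protein F4/80, had 19 and 142 UMIs (8.47-fold [5.23 to 14.5]), Plek, the platelet and leukocyte protein pleckstrin, 27 and 157 (6.59-fold), Fyb1, an adaptor of leukocyte signalling, 87 and 376 (4.896-fold), and Plac8 3 and 29 (10.95-fold [3.39 to 56.2]). Between 38.9% (Plek) and 48.4% (Fyb1) of the LPS UMIs of these 4 genes were in microglia or macrophage-marker barcodes. Ch25h, which makes the oxysterol 25-hydroxycholesterol, had 86 and 325 UMIs (4.28-fold [3.37 to 5.496]) with 47.4% in endothelial-marker and 24.9% in microglia or macrophage-marker barcodes. The antiviral gene Oas1k (23 and 121 UMIs, 5.96-fold) and Cd38, an NAD-consuming ectoenzyme gene (11 and 63, 6.49-fold), had 14.05% and 4.76% in endothelial-marker and 7.44% and 15.9% in microglia or macrophage-marker barcodes.

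Blood-brain barrier transporters led the lower genes. Of 19 measured members 7 were at least 2-fold lower, 0 were higher, 0 had a ratio above 1 and the median log2 ratio was -0.60. That median was -0.87 in barcodes with at least 1000 detected genes, -0.18 in those with 500 to 1500 and -0.24 without endothelial-marker barcodes. Abcg2, a drug efflux pump, had 661 UMIs (19.9 CPM) after saline and 68 (2.32 CPM) after LPS, 8.58-fold lower [6.68 to 11.2], and the P-glycoprotein gene Abcb1b had 1049 and 268 (3.45-fold lower [3.02 to 3.97]). The organic anion transporter genes Slco1c1 and Slco1a4 had 960 and 74 UMIs (11.5-fold lower [9.03 to 14.7]) and 1176 and 196 (5.296-fold lower [4.55 to 6.19]). Not every transporter was far below saline: the glucose transporter gene Slc2a1 had 905 and 685 UMIs (1.17-fold lower [1.05 to 1.29]), and the lactate transporter gene Slc16a1 545 and 443 (1.09-fold lower [0.956 to 1.23]).

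The share of Slco1c1 UMIs in endothelial-marker barcodes was 75.1% after saline and 6.76% after LPS. For Abcg2 these shares were 73.1% and 42.6%, for Slco1a4 71.3% and 40.3%, and for Adgrf5 76.5% and 84.3%. Outside the endothelial-marker barcodes Slco1c1 was at 0.325 of its saline level and Abcg2 at 0.247. Summed endothelial markers were at 0.626 of saline [0.601 to 0.652], with 5 of 13 measured at least 2-fold lower, and these are themselves among the genes that differed. Lower were Slco1a4, the sialomucin gene Emcn (236 and 47 UMIs, 4.43-fold), the angiopoietin receptor genes Tie1 (135 and 29, 4.11-fold) and Tek (380 and 133, 2.52-fold), and Cyyr1. Tek and Cyyr1 are also among the markers that define the endothelial-marker barcodes. Shares in those barcodes may therefore not be like for like between the 2 libraries. Tek was at 0.595 of saline in barcodes with 500 to 1500 detected genes. Others were near saline, such as Ptprb (1027 and 954 UMIs, 1.05-fold), Esam (223 and 207, 1.05-fold) and Erg (300 and 241, 0.9101-fold), and the junction cadherin gene Cdh5 had 114 and 169 (1.68-fold). Summed mural markers were at 0.784 of saline [0.759 to 0.8103]. The part of the number of vascular nuclei in the transporter values was not tested.

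**Figure D4:**
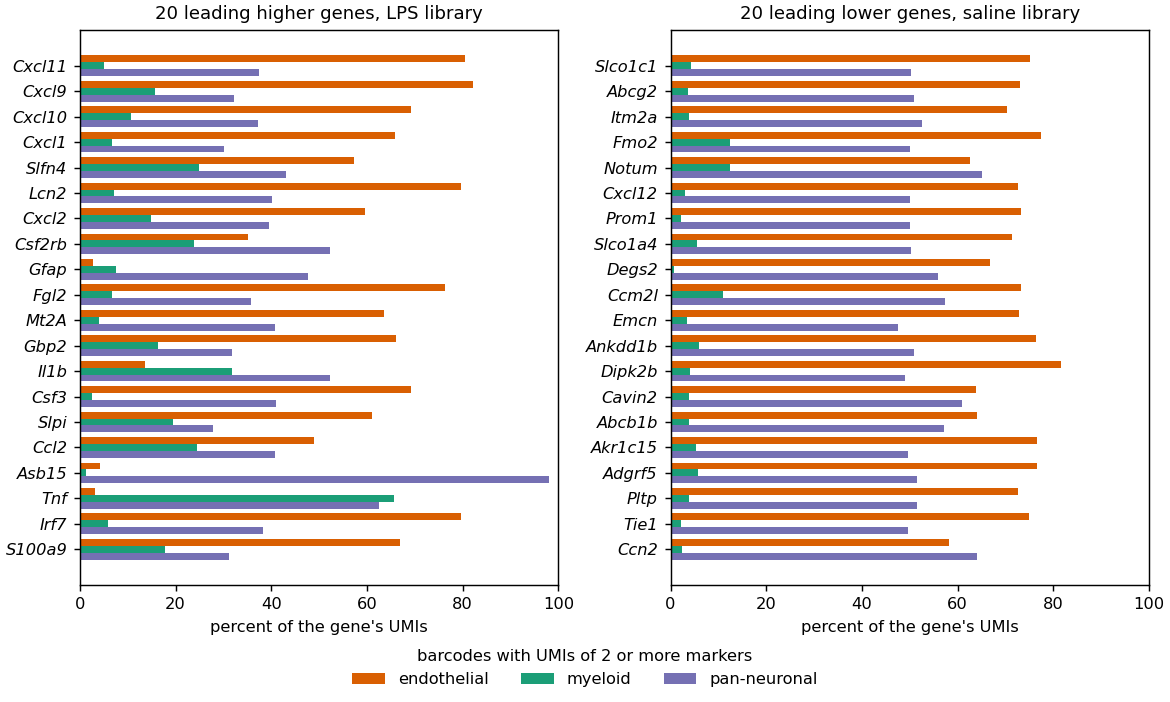
Percent of a gene's UMIs found in barcodes with UMIs of at least 2 endothelial, myeloid (microglia or macrophage) or pan-neuronal markers, for the 20 leading higher genes in the LPS library and the 20 leading lower genes in the saline library; a barcode can count for several marker sets. Endothelial-marker barcodes hold a median of 64.7% of the UMIs of the higher genes and 73.0% of those of the lower genes, with Gfap, Asb15 and Tnf as the lowest of the higher ones.

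Endothelial junction and angiogenesis genes went both ways, with 3 of 32 at least 2-fold higher and 6 lower. Klf2, a transcription factor induced by blood flow, had 496 and 143 UMIs (3.06-fold lower [2.54 to 3.71]), with 77.6% and 82.5% of them in endothelial-marker barcodes, and was at 0.5297 of saline in barcodes with 500 to 1500 detected genes. Angpt2, the ligand that opposes Tek signalling, had 68 and 187 UMIs (3.12-fold higher [2.35 to 4.18]), and the protease gene Adamts1 47 and 231 (5.57-fold [4.05 to 7.79]). Without endothelial-marker barcodes Angpt2 was at 1.23 and Adamts1 at 2.18 times saline. Of the 14 coagulation and fibrinolysis genes 2 were higher.

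Most lower genes were outside the lists, which held 25 of the 150 with a symbol. For those described here, most saline UMIs were in endothelial-marker barcodes. Itm2a, a membrane protein gene, had 986 and 112 UMIs (7.77-fold lower [6.39 to 9.53]) and Prom1, the prominin gene, 438 and 59 (6.55-fold lower [4.98 to 8.75]). Fmo2, a flavin monooxygenase gene, and Notum, which encodes an inactivator of Wnt ligands, each had 40 UMIs after saline and 1 after LPS (35.3-fold lower [5.98 to 1429]). The phospholipid transfer protein gene Pltp had 1125 and 296 UMIs (3.35-fold lower [2.95 to 3.83]) and the YAP target Ccn2 597 and 162 (3.25-fold lower [2.73 to 3.89]). Cdc45, a DNA replication gene, had 837 and 274 UMIs (2.696-fold lower [2.35 to 3.102]), with 71.4% and 75.2% of them in endothelial-marker barcodes. The name covers 2 features whose UMIs were summed, so these values cannot be assigned to either feature. Cdc45 was chosen, like Cst3, after its value was seen, and in barcodes with 500 to 1500 detected genes it was at 0.627 of saline, short of 2-fold.

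Cst3 and the haemoglobin genes were well expressed. Cst3, the protease inhibitor cystatin C, had 3134 UMIs (94.2 CPM) after saline and 1144 (38.97 CPM) after LPS (2.42-fold lower [2.26 to 2.59]). It was at 0.721 of saline without endothelial-marker barcodes and at 0.597 in barcodes with 500 to 1500 detected genes, both short of 2-fold. Of the haemoglobin genes, Hbb-b1 had 2339 and 885 UMIs (2.33-fold lower [2.16 to 2.52]) and Hba-a2 1955 and 768 (2.25-fold lower [2.07 to 2.45]). In the LPS library 72.9% of Hbb-b1 UMIs were in endothelial-marker barcodes, with up to 93 in 1 barcode. In barcodes with 500 to 1500 detected genes Hbb-b1 was at 0.621 and Hba-a2 at 0.588 of saline.

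Immediate early genes, which neurons and other cells induce on stimulation, were mostly below saline. Of 27 measured 5 were at least 2-fold lower, 0 were higher, 6 had a ratio above 1 and the median log2 ratio was -0.49. Npas4, an activity-dependent transcription factor of neurons, had 205 and 80 UMIs (2.26-fold lower [1.74 to 2.97]), Fosb 76 and 27 (2.48-fold lower [1.58 to 4.01]) and Egr3 109 and 46 (2.09-fold lower [1.47 to 3.02]). Klf2, described with the vascular genes, and Klf4 were the other two. Egr3 was at 0.705 of saline in barcodes with 500 to 1500 detected genes, short of 2-fold. Arc, Fos and Bdnf lay between 0.648 and 0.7105 of saline, whereas Junb was at 1.33. Over the alternatives the list median ranged from -0.61 to -0.39.

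Cholesterol synthesis and uptake genes shifted less but nearly in unison. 1 of 25 had a ratio above 1, 0 were 2-fold lower, and the median log2 ratio was -0.31, from -0.34 to -0.18 over the alternatives. The synthase gene Hmgcs1 had 1057 and 669 UMIs (1.39-fold lower [1.26 to 1.54]). The exception was Abca1, which exports cholesterol, with 496 and 727 UMIs (1.66-fold higher [1.48 to 1.87]).

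Neuronal and housekeeping lists lay at saline levels. None of 39 synaptic, 23 glutamate receptor, 18 GABA and glycine receptor, 28 potassium channel, 30 sodium and calcium channel or 27 neuropeptide genes was 2-fold apart, with medians from -0.09 to 0.03. Of 22 monoamine and acetylcholine genes 1, the aromatic decarboxylase gene Ddc, was lower (300 and 119 UMIs, 2.23-fold [1.79 to 2.78]). It held 43% of saline UMIs in endothelial-marker barcodes and was at 0.732 of saline without them. Likewise none of 25 clock, 55 respiratory chain, 13 mitochondrially encoded or 66 ribosomal protein genes was 2-fold apart. The largest differences in absolute level were small in ratio and fell on abundant neuronal genes: Kcnip4, a potassium channel partner, had 12347 CPM after saline and 11704 after LPS, and Cadm2, a synaptic adhesion gene, 4537 and 5142. In barcodes with 500 to 1500 detected genes the ratio of Kcnip4 was 0.717 and that of Cadm2 1.04.

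**Figure D5:**
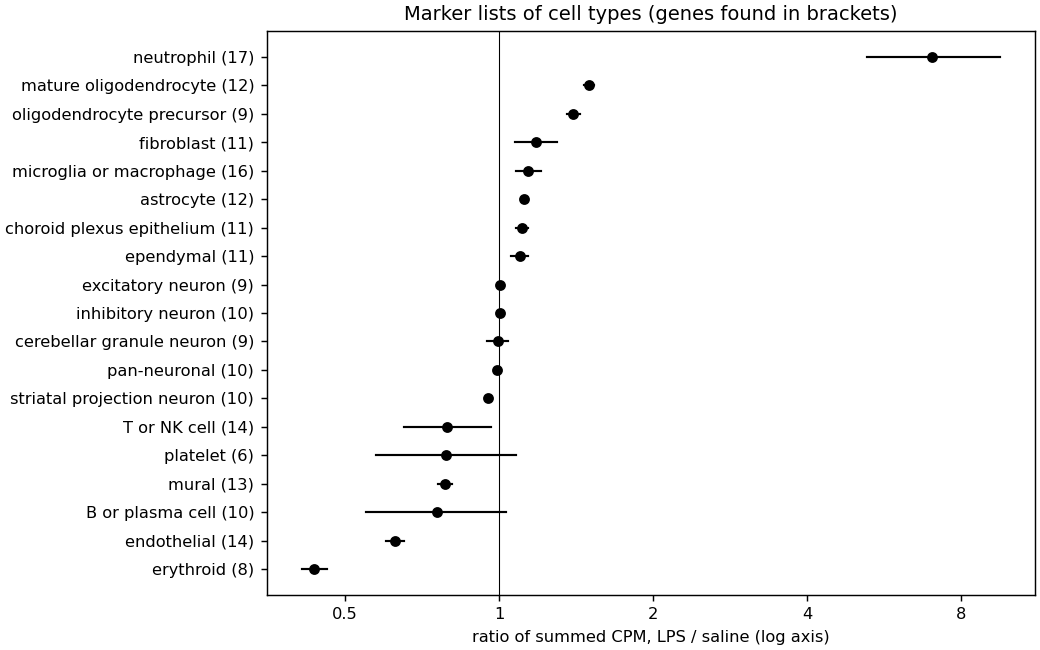
Ratio of the summed CPM of cell type markers, LPS to saline, on a log axis with 95% counting intervals; numbers in brackets count the markers found. Pan-neuronal, excitatory and inhibitory neuron sums lie between 0.988 and 1.01, neutrophil markers are 7.01-fold higher, oligodendrocyte markers are above 1 and endothelial and erythroid markers below it.

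Marker sums described which kinds of RNA the libraries held. Pan-neuronal markers were at 0.988 [0.983 to 0.994], excitatory at 1.01 [0.991 to 1.02] and inhibitory neuron markers at 1.01 [0.992 to 1.02] of saline, whereas striatal projection neuron markers were at 0.9502 [0.939 to 0.961]. T or NK cell markers had 256 UMIs after saline and 179 after LPS, and B or plasma cell markers 105 and 70. Choroid plexus and ependymal markers were at 1.11 [1.08 to 1.14] and 1.097 [1.05 to 1.14].

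Some genes that were higher after LPS lay next to each other. Of the 12997 tested genes with a symbol 12847 had a place in the RefSeq table of build GRCr8, and in 8 runs at least 3 neighbouring tested genes were all at least 2-fold higher, whereas no such run was lower. The runs held 28 of the 293 higher genes with a place (9.56%). They were the attractants Cxcl11, Cxcl10 and Cxcl9, the guanylate-binding genes Gbp5, Gbp4 and Gbp2, the antiviral genes Oas1i, Oas1a and Oas1k, and the run of Parp9, Dtx3l and Parp14. On chromosome 20, which carries the rat major histocompatibility complex, they were 5 class I genes from RT1-CE16 to RT1-CE2, the antigen processing genes Tap2, Psmb8, Tap1 and Psmb9 with RT1-DMb, and Tnf with Ltb and Aif1. The last run was that of the complement genes C1qb, C1qc and C1qa, at 2.15 to 2.48 times saline. RT1-CE genes are related copies, as are the Oas1 genes, so some reads may not be assigned to the right copy, which was not tested. Of 180 symbol families with at least 10 measured members, the RT1 genes had the highest median log2 ratio, 0.82, with 7 of 18 higher and 2 lower, followed by the S100 and other genes starting with S and a digit at 0.57. The Dusp phosphatases had the lowest, -0.23, with 0 of 19 past 2-fold.

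The levels after poly(I:C) separated the leading genes. Of the 20 leading higher genes, 8 had a higher CPM after poly(I:C) than after LPS. Cxcl11 had 33.1 CPM after LPS and 134 after poly(I:C), Cxcl10 8.31 and 92.95, Slfn4 8.38 and 35.3, and Asb15 4.97 and 17.4. The others were higher after LPS: Cxcl1 had 5.08 and 1.03 CPM, Cxcl2 3.88 and 0.541, Lcn2 8.07 and 1.87, Il1b 1.499 and 0.148, and Gfap 33.05 and 6.64. All 20 leading lower genes were below their saline level after poly(I:C), where Slco1c1 had 0.836 CPM, Abcg2 1.97 and Cxcl12 10.8. Both treatments are set against the same saline library, so these levels are not independent evidence of a shared direction.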

How the data were processed

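Single-nucleus RNA of rat brain was counted in 3 libraries, each from 4 pooled animals, 1 per treatment. The authors deposited matrices of UMI counts, 1 per barcode and gene, without normalisation. Per the file headers and the submitters' processing notes, reads were counted with Cell Ranger 7.0.0, and the notes name the build mRatBN7.2. The annotation release and the cell-calling settings are not given in the sources used here.

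Barcodes with at least 500 detected genes were kept, which left out 4092 saline and 720 LPS barcodes. Features sharing a name were summed (30560 features, 28370 names), UMIs were summed per library and scaled to 1000000. Among the named genes Abcb1b, Cdc45, Oas1k and Slfn4, for instance, each cover 2 features. Of 21916 names with a UMI, 15342 had at least 30 and were compared, holding 99.9% of all UMIs. Intervals are exact conditional (Clopper-Pearson) 95% intervals. A ratio against 0 UMIs is a bound with 3 counts in that library. With 1 library a side no test or p-value was computed, and 2-fold is a description. Names that are Ensembl identifiers or placeholders were counted but not named.

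The comparison and the gene and marker lists were chosen with earlier results of these data known, and 95 of 1352 listed symbols were not found. Named genes were the 20 with the highest lower limit and the 20 with the lowest upper limit, the 8 largest CPM differences each way, up to 4 members per list past 2-fold and marker genes with the whole interval past 2-fold. Others, such as Mbp, Aspa, Plekhh1, Fkbp5, Mt1, Slc2a1, Slc16a1, Ptprb, Esam, Erg, Cyyr1, Cdh5, Arc, Fos, Bdnf, Junb, Klf4, Hmgcs1, Abca1 and the genes of neighbouring runs, were named after their values were seen. Alternatives changed the minimum of UMIs, the barcodes kept, the scaling, the weight of barcodes and the treatment of doublets and zeros. Python 3.11.15, scanpy 1.11.5 (with Scrublet), scipy 1.17.1, numpy 2.4.6, matplotlib 3.10.9 and pandas 2.3.3 were used, and the interval script was tested on simulated data. RefSeq tables of build GRCr8 gave the promoters with their positions and the order of neighbouring genes, while the counts were made on mRatBN7.2.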

Additional observations from a re-analysis of the deposited data

Results flagged for a closer look

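The barcodes left out for having fewer than 500 detected genes, 4092 after saline with 2276165 UMIs and 720 after LPS with 410227, were looked at for the 20 leading higher genes. There, 15 of the 20 were above saline with the whole counting interval, in barcodes that otherwise entered only the alternative that counted every barcode. These barcodes are of the same 2 libraries and so are not independent evidence. Against 0 saline UMIs, Cxcl11 was at least 123.9-fold higher (67 LPS UMIs), Slfn4 at least 53.6-fold, Cxcl1 at least 31.4-fold, Cxcl10 at least 29.6-fold, Cxcl2 at least 24.0-fold, Ccl2 at least 12.9-fold and Csf2rb at least 11.1-fold (6 UMIs). Against 1 to 3 saline UMIs, Cxcl9 was 188.7-fold higher, Mt2A 88.8-fold, Lcn2 and Fgl2 83.2-fold, Gbp2 77.7-fold, Irf7 29.6-fold and Il1b 22.2-fold [2.196 to 1093]. Gfap had 16 saline and 231 LPS UMIs and was 80.1-fold higher [48.3 to 143], against 18.3-fold in the kept barcodes. Of the 20 leading lower genes, 16 had a ratio or bound below 1 there. For 9 the whole interval lay below saline, among them Slco1c1 with 158 and 2 UMIs and Cxcl12 with 375 and 12.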

How the results depend on the processing

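Each group is 1 library, so no library could be left out. No paired analysis was possible because each group is 1 library. The counts of 333 higher and 201 lower genes became 572 and 477 with a minimum of 10 UMIs and 165 and 78 with 100. The higher count was 174 with at least 1000 detected genes, and, in alternatives with equal weight per barcode and with 500 to 1500 detected genes, 841 and 726. The lower count was 120 with each barcode thinned to 1000 UMIs, which left out 6058 saline and 1181 LPS barcodes. The other alternatives gave 274 to 354 higher and 141 to 221 lower genes. The cause was not tested, except that a minimum of UMIs changes the number of genes compared. All 128 genes past 2-fold that were recomputed kept their direction wherever they had a value. Of 40 list medians 19 changed sign under some alternative, all of them within 0.38 of 0 on the log2 scale, among them that of activated microglia genes, from 0.38 to -0.21 with a minimum of 100 UMIs. The 20 leading genes on each side stayed past 2-fold wherever they had the minimum of UMIs, except Ankdd1b, at 0.516 of saline without endothelial-marker barcodes. Single genes moved too: Gfap ranged from 8.59-fold with at least 1000 detected genes to 36.7-fold with equal weight per barcode. Scrublet's automatic threshold marked 0 barcodes in either library, so that planned setting had no value. Leaving out the highest scores at 0.8% per 1000 barcodes gave 275 and 159 genes and was chosen after seeing the data, as were the window of 500 to 1500 genes, the removal of marker barcodes and of each gene's highest barcode. Genes near 30 UMIs can pass 2-fold by counting error, and animals and preparation are not covered by any interval.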

Other observations

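Several immune genes fell under the minimum of 30 UMIs and so entered no count above, although their whole interval lay past 2-fold. There were 16 such genes with a symbol. For the chemokine gene Ccl3, 0 saline and 23 LPS UMIs were counted (at least 8.69-fold higher), Acod1, which makes itaconate in activated macrophages, had 0 and 18 (at least 6.798-fold), the integrin gene Itgax 0 and 14 (at least 5.29-fold) and Il1a 0 and 12 (at least 4.53-fold). Tlr2, the receptor for bacterial lipoproteins, had 3 and 25 UMIs (9.44-fold [lower limit 2.88]), and Ripk3, a kinase of necroptosis, 1 and 13 (14.7-fold [lower limit 2.21]). Its partner Mlkl passed the minimum, with 8 and 47 UMIs (6.66-fold [3.12 to 16.3]).

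Cell cycle genes lay at saline levels as a list, with a median log2 ratio of -0.03. Of 27 measured members 2 were past 2-fold upwards, Cenpf, a centromere protein gene, with 11 and 39 UMIs (4.02-fold higher [2.02 to 8.696]) and Top2a, a topoisomerase gene, with 18 and 33 (2.08-fold [1.14 to 3.92]). Both had 30 to 99 UMIs in all, a range in which 7.70% of all genes were higher.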
